A study of Arachis hypogaea with 30 samples.

Results

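The 4 genes described here, Ah09g150200, Ah16g113100, Ah19g203200 and Ah13g315800, belong to the pathway that makes raffinose in peanut (Arachis hypogaea), out of 82955 genes in the deposited table. They were taken by name: 3 are annotated in the table as galactinol synthase (KO K18819) and 1, Ah13g315800, as raffinose synthase (KO K06617). They were chosen by their change with salt in these same libraries, so their own values are given as a description with no p, and no count of them is read as support. All 4 were among the 42311 genes that passed the filter on low values, which asked for 3 or more libraries at 1 FPKM or above. FPKM is a count scaled by exonic length and library total, so genes of different length and libraries of different depth can be set side by side. It does not allow for a shift in which genes take up the total, and this bears most on the 48 h values below.

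Poly(A) RNA was sequenced from whole hydroponic seedlings of 2 peanut cultivars at the 3-leaf stage, HY33, labelled tolerant of salt, and HY9115, which the design text gives as salt-sensitive. Each cultivar was sampled in water at 0 h and after 3, 12, 24 and 48 h in 100 mM NaCl, with 3 libraries in each of the 10 groups. Seeds of both had germinated for a week before the move to hydroponics. The 30 libraries held 13072324 to 18788677 counts. Only the 0 h plants were in water among the libraries used here, and an effect of salt cannot be told apart from those of elapsed time and the hour of sampling. Replicates are labelled biological, but nothing says how many plants went into each, so p-values speak only to the spread among these libraries, part of which may be technical. A whole seedling mixes leaf, stem, cotyledon and root, and a change in the number of cells of a type cannot be told apart from a change in RNA per cell.

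Galactinol synthase joins galactose from UDP-galactose to myo-inositol, and the product, galactinol, is the galactose donor for the raffinose family of sugars. Raffinose synthase passes that galactose to sucrose to make raffinose, and stachyose synthase adds another to make stachyose. These sugars accumulate in legume seeds as they mature and in vegetative tissue under drought, cold and salt, where they act as compatible solutes and scavengers of reactive oxygen. In Arabidopsis, several galactinol synthase genes are known to be induced by different stresses.

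The 3 galactinol synthase genes lie on different chromosomes, with coordinates taken from the deposited table, whose build no source used here names. Ah09g150200 is on chromosome 9 from 22668751 to 22670873, with 1840 exonic bases. Ah16g113100 is on chromosome 16 from 15632393 to 15634676, with 1502 exonic bases. Ah19g203200 is on chromosome 19 from 29943351 to 29945071, with 1448 exonic bases. Ah13g315800, the raffinose synthase gene, is longer, on chromosome 13 from 49040742 to 49052972, with 2666 exonic bases. All 4 are on the minus strand, and 0 other gene models overlap any of them. Ah09g150200 and Ah19g203200 each have a gene of the same annotation, KO K12608, as their nearest tested neighbour at lower coordinates (Ah09g150100 and Ah19g203100). Peanut carries 2 subgenomes with near-identical gene copies, so how reads were split within such a pair is uncertain.

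Ah09g150200 was the most abundant galactinol synthase gene in 9 of the 10 groups, and its level was highest at 3 h in both cultivars. In HY33 its 3 libraries had 20.73, 21.02 and 22.27 FPKM at 0 h, 195.41, 203.37 and 177.55 at 3 h, 140.49, 141.01 and 138.77 at 12 h, 91.45, 98.04 and 100.67 at 24 h, and 42.06, 47.55 and 44.11 at 48 h. In HY9115 they had 7.38, 6.24 and 5.63 FPKM at 0 h, 138.87, 138.14 and 156.78 at 3 h, 110.49, 105.74 and 107.35 at 12 h, 76.28, 85.09 and 87.02 at 24 h, and 48.9, 54.51 and 57.08 at 48 h. Every salt library of a cultivar was above all 3 of its 0 h libraries, and the levels at successive salt times did not overlap within a cultivar. The log2 change from 0 h, on counts scaled by TMM (a per-library factor that sets the typical gene to no change), was 3.14 ± 0.09 (SE) in HY33 at 3 h, 2.82 ± 0.09 at 12 h, 2.30 ± 0.09 at 24 h and 1.44 ± 0.09 at 48 h. In HY9115 it was 4.51 ± 0.10 at 3 h, 4.19 ± 0.10 at 12 h, 3.75 ± 0.10 at 24 h and 3.31 ± 0.10 at 48 h. The 4 salt comparisons of a cultivar share its 0 h libraries.

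Ah16g113100 was lower in level and had its highest group at 12 h in HY33 and at 3 h in HY9115. Its HY33 libraries had 1.7, 1.16 and 1.28 FPKM at 0 h, 19.43, 20.63 and 19.24 at 3 h, 25.03, 23.11 and 25.07 at 12 h, 13.29, 13.45 and 14.59 at 24 h, and 6.84, 6.73 and 5.14 at 48 h. Its HY9115 libraries had 0.91, 0.55 and 0.87 FPKM at 0 h, 27.01, 26.69 and 38.12 at 3 h, 26.69, 24.35 and 25.97 at 12 h, 10.62, 12.57 and 13.02 at 24 h, and 8.42, 7.65 and 7.62 at 48 h. The salt libraries again lay above those at 0 h in each cultivar, and in HY9115 the 3 h and 12 h libraries touched at 26.69 FPKM. The log2 change from 0 h was 3.81 ± 0.16 (SE) in HY33 at 3 h, 4.24 ± 0.16 at 12 h, 3.44 ± 0.17 at 24 h and 2.55 ± 0.18 at 48 h. In HY9115 it was 5.31 ± 0.17 at 3 h, 5.15 ± 0.18 at 12 h, 4.01 ± 0.19 at 24 h and 3.6 ± 0.20 at 48 h.

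Ah19g203200 had its highest group at 12 h in both cultivars. Its HY33 libraries had 3.43, 2.5 and 3.72 FPKM at 0 h, 31.95, 20.95 and 26.06 at 3 h, 38.24, 38.66 and 31.93 at 12 h, 24.68, 22.85 and 23.51 at 24 h, and 7.09, 11.53 and 8.33 at 48 h. Its HY9115 libraries had 0.78, 0.83 and 0.45 FPKM at 0 h, 22.21, 20.3 and 25.21 at 3 h, 36.93, 30.48 and 27.15 at 12 h, 26.21, 29.34 and 31.79 at 24 h, and 17.22, 13.71 and 16.79 at 48 h. Levels at 3 h and 12 h in HY33, and at 12 h and 24 h in HY9115, overlapped, while 0 h lay below all salt libraries in both. The log2 change from 0 h was 2.99 ± 0.17 (SE) in HY33 at 3 h, 3.59 ± 0.16 at 12 h, 2.99 ± 0.17 at 24 h and 1.85 ± 0.18 at 48 h. In HY9115 it was 5.04 ± 0.22 at 3 h, 5.62 ± 0.21 at 12 h, 5.45 ± 0.21 at 24 h and 4.77 ± 0.22 at 48 h.

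Ah13g315800, the raffinose synthase gene, was nearly silent before salt and did not come down by 48 h. In HY33 its counts were 1, 0 and 0 at 0 h and 2, 0 and 3 at 3 h. At 12 h they were 370, 478 and 412 in HY33, which is 9.49, 12.62 and 11.34 FPKM. HY33 libraries had 8.76, 8.41 and 9.14 FPKM at 24 h and 14.49, 15.73 and 14.23 at 48 h. In HY9115 the gene was already present at 3 h: its counts were 9, 10 and 2 at 0 h and 112, 117 and 111 at 3 h, and the 3 h libraries had 2.74, 2.62 and 2.34 FPKM. HY9115 libraries then had 10.58, 8.57 and 8.41 FPKM at 12 h, 9.94, 8.39 and 7.7 at 24 h, and 14.51, 15.91 and 15.35 at 48 h. The 48 h libraries were above all others in both cultivars, and those at 12 h and 24 h overlapped in HY9115 but not in HY33.

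With 1 count in the 3 HY33 libraries at 0 h, changes of Ah13g315800 in HY33 are given as ratios of CPM, counts scaled by library total, with a 95% interval for counting error only. The ratio to 0 h was 1450 at 12 h (260 to 57400), 1140 at 24 h (205 to 45200) and 1930 at 48 h (347 to 76400). The only count at 0 h was in replicate 1, and without that library the ratios, taken against 3 counts over the group, were at least 333 at 12 h, 262 at 24 h and 443 at 48 h. At 3 h in HY33 there were 5 counts against 1 at 0 h, too few to tell a change. In HY9115 the log2 change from 0 h was 3.96 ± 0.26 (SE) at 3 h, 5.90 ± 0.22 at 12 h, 5.76 ± 0.22 at 24 h and 6.77 ± 0.21 at 48 h, against 21 counts in the 3 libraries at 0 h.

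**Figure D1:**
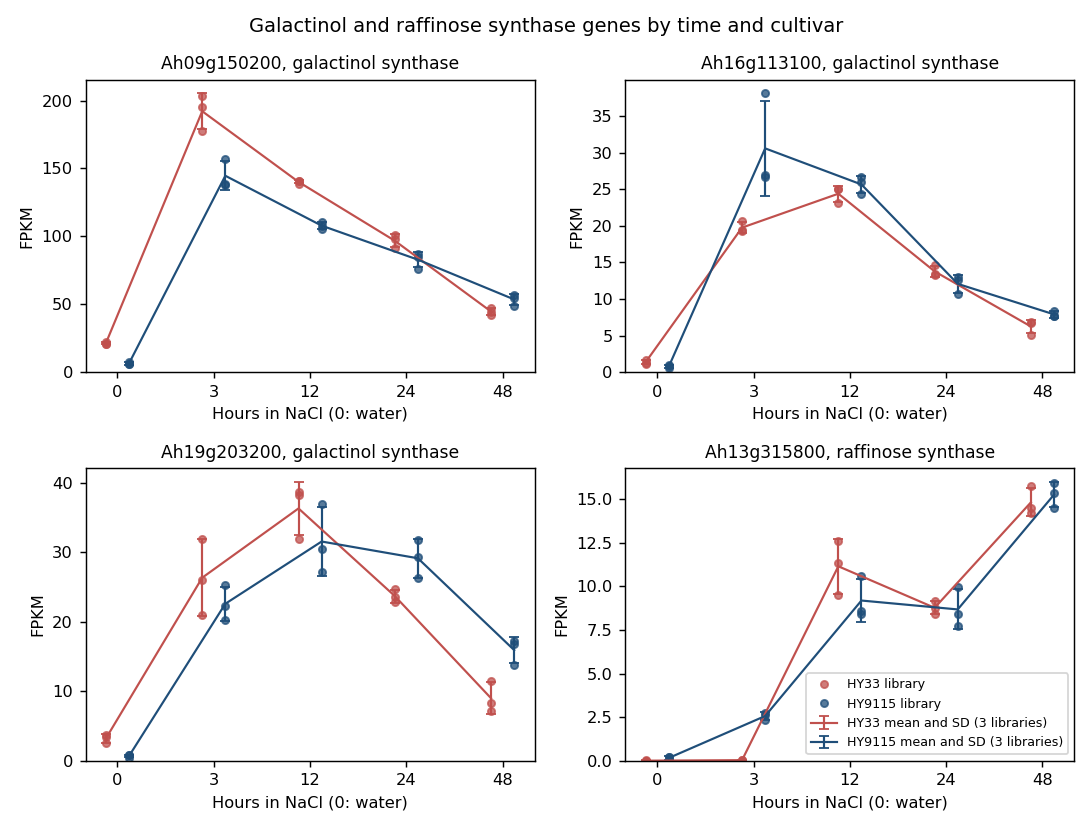
FPKM of each of the 4 genes (y axes, each panel with its own range) against hours in NaCl (x axes, times evenly spaced, 0 h in water), with a point for each library and lines and bars for the mean and SD of 3 libraries, HY33 in red left of HY9115 in blue. The 3 galactinol synthase genes are highest at 3 or 12 h and lower at 48 h, whereas Ah13g315800 is highest at 48 h, 14.82 FPKM in HY33 and 15.26 FPKM in HY9115.

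For the genes other than these 4, a change is called where the adjusted p is under 0.05 in edgeR's quasi-likelihood test and the log2 change is at least 1 in size. Over all genes tested, the share called higher was 6.61% at 3 h, 11% at 12 h, 10.4% at 24 h and 14.3% at 48 h in HY33, and 8.27%, 11.4%, 9.2% and 14.5% at the same times in HY9115. The share called lower was 7.45%, 12.9%, 13.4% and 20.1% at those times in HY33 and 6.43%, 12.4%, 10.5% and 21.3% in HY9115. The 4 genes were picked for these contrasts, so nothing is read from where they lie against these shares. Scaling bears on the 48 h values: with total counts in place of TMM, the median gene moved by -0.38 in HY33 and by -0.26 in HY9115 at 48 h. Ah09g150200 in HY33 at 48 h was then 1.06 above 0 h on the log2 scale, and with TPM scaling it was 0.94 above 0 h, under the size of 1 used for a call.

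Before salt, the 3 galactinol synthase genes were higher in level in HY33. At 0 h Ah09g150200 had 21.34 ± 0.818 FPKM in HY33 and 6.417 ± 0.888 in HY9115 (SD, n = 3 each), a log2 difference of 1.74 ± 0.10 (SE). Ah19g203200 had 3.217 ± 0.637 FPKM in HY33 and 0.6867 ± 0.206 in HY9115 at 0 h, a log2 difference of 2.22 ± 0.28. Ah16g113100 had 1.38 ± 0.283 FPKM in HY33 and 0.7767 ± 0.197 in HY9115 at 0 h, a log2 difference of 0.83 ± 0.27, or 0.63 without HY9115 0 h replicate 2. For each of these 3 genes all HY33 libraries at 0 h were above all HY9115 libraries. Over all genes tested, 5.71% were called between the cultivars at 0 h, 2.97% as higher and 2.75% as lower in HY33. These shares are background only.

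The raffinose synthase gene had the opposite order. At 0 h Ah13g315800 had 1 count in HY33 and 21 in HY9115, a ratio of 0.0467 with a 95% counting interval of 0.00113 to 0.29. Without HY33 0 h replicate 1 the ratio was at most 0.204, with HY33 taken at 3 counts. At 3 h it had 5 counts in HY33 and 340 in HY9115, a ratio of 0.0149 with an interval of 0.00481 to 0.0352. At 3 h 5.85% of all genes were called in either direction, with 2.06% higher and 3.78% lower in HY33.

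In salt the log2 difference of HY33 from HY9115 for Ah09g150200 was 0.38 ± 0.08 (SE) at 3 h, 0.37 ± 0.08 at 12 h, 0.29 ± 0.08 at 24 h and -0.14 ± 0.08 at 48 h, and the libraries of the cultivars did not overlap in FPKM at any of these times. FPKM is scaled on library totals. Scaled by TMM in addition, the 48 h libraries of Ah09g150200 did overlap, at 52.1 to 57.9 FPKM in HY33 and 54.2 to 62.7 FPKM in HY9115. For Ah16g113100 it was -0.67 ± 0.11 at 3 h, -0.08 ± 0.11 at 12 h, 0.26 ± 0.12 at 24 h and -0.21 ± 0.14 at 48 h, with libraries overlapping in FPKM at 12 h and, scaled by TMM in addition, also at 48 h. For Ah19g203200 it was 0.18 ± 0.13 at 3 h and 0.19 ± 0.13 at 12 h, both with overlapping libraries, -0.23 ± 0.13 at 24 h and -0.69 ± 0.15 at 48 h. For Ah13g315800 it was 0.27 ± 0.12 at 12 h, 0.08 ± 0.12 at 24 h and 0.08 ± 0.11 at 48 h, and the libraries overlapped at all 3 times, with a sign that turned at 24 h and 48 h under TPM scaling (-0.09 and -0.15). Over all genes 3.76% were called at 12 h, 5.16% at 24 h and 9.02% at 48 h in either direction.

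Set against its own 0 h, each of the 3 galactinol synthase genes had the smaller change in HY33. The change in HY33 minus that in HY9115 was -1.36 ± 0.13 (SE, log2) at 3 h, -1.37 ± 0.13 at 12 h, -1.45 ± 0.13 at 24 h and -1.88 ± 0.13 at 48 h for Ah09g150200. For Ah16g113100 it was -1.50 ± 0.29 at 3 h, -0.91 ± 0.29 at 12 h, -0.57 ± 0.29 at 24 h and -1.04 ± 0.30 at 48 h. Without HY9115 0 h replicate 2 it was -1.29, -0.71, -0.35 and -0.84 at those times. For Ah19g203200 it was -2.04 ± 0.32 at 3 h, -2.03 ± 0.32 at 12 h, -2.45 ± 0.31 at 24 h and -2.92 ± 0.32 at 48 h. These differences use the same 0 h libraries as the comparison of cultivars in water, and over all genes 4.45% were called at 3 h, 4.52% at 12 h, 3.74% at 24 h and 8% at 48 h in either direction.

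Ranked by FPKM over all 10 groups, Ah09g150200 was highest in HY33 at 3 h (192.1 ± 13.2 FPKM, SD, n = 3) and lowest in HY9115 at 0 h, and the 1 pair of neighbours in that order with overlapping libraries was HY9115 at 3 h and HY33 at 12 h. For Ah16g113100 the top 3 groups, HY9115 at 3 h (30.61 ± 6.51 FPKM), HY9115 at 12 h and HY33 at 12 h, overlapped in turn, and the rest were apart. For Ah19g203200 the 6 groups from HY33 at 12 h (36.28 ± 3.77 FPKM) to HY9115 at 3 h (22.57 ± 2.48 FPKM) overlapped in turn, with the 48 h groups below them and the 0 h groups last. For Ah13g315800 the 2 groups at 48 h overlapped at the top, the 4 groups at 12 h and 24 h overlapped in turn below them, and HY9115 at 3 h stood alone above the remaining 3.

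Over the 10 group means of log2 CPM, the 3 galactinol synthase genes had Pearson correlations of 0.95 to 0.97 with each other, and Ah13g315800 had 0.43 to 0.60 with each of them. The 10 means are points of 2 time courses, so these values describe likeness and carry no p. Among 16913 other tested genes with a KO annotation, 2 genes of KO K14516, the ethylene response factor ERF1, Ah12g132300 (r = 0.961) and Ah02g107100 (r = 0.959), had the closest profiles to Ah09g150200. Then came Ah15g560100 (r = 0.955, annotated GIGANTEA, a clock protein), Ah13g102700 (r = 0.951) and Ah07g109500 (r = 0.948, a type 2C protein phosphatase that acts against abscisic acid signalling). Ah15g560100 itself had 90.76 FPKM in HY33 at 3 h against 4.21 in HY33 at 0 h, and 84.31 FPKM in HY9115 at 3 h against 2.82 in HY9115 at 0 h.

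The genes closest to Ah16g113100 were Ah02g107100 (r = 0.984), the ABC transporter Ah19g473700 (r = 0.974, with a GO term for abscisic acid transport), the nucleoside transporter Ah18g099200 (r = 0.974), the lipid kinase Ah19g480900 (r = 0.973, choline or ethanolamine kinase) and Ah12g132300 (r = 0.972). Closest to Ah19g203200 were Ah09g409100 (r = 0.984, a molybdopterin synthesis enzyme), the type 2C phosphatases Ah07g109500 (r = 0.969) and Ah17g118200 (r = 0.960), the auxin-conjugating enzyme Ah05g426000 (r = 0.952) and Ah02g107100 (r = 0.949). Closest to Ah13g315800 were the proton pump Ah10g333500 (r = 0.995), the tonoplast aquaporin Ah05g283400 (r = 0.994), the ADP/ATP carriers Ah18g113500 and Ah08g221200 (r = 0.993 each) and the heat shock protein 70 gene Ah09g005700 (r = 0.993). Each of these 5 had a higher mean in HY9115 than in HY33 at 3 h, as in Ah09g005700, which had 1.92 FPKM in HY33 at 3 h and 33.93 FPKM in HY9115 at 3 h. They were chosen for likeness over means that include both 3 h groups, so this shared order is no separate observation.

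Taken over the whole family, the 8 galactinol synthase genes summed to 61.08 ± 5.52 FPKM (SD, n = 3) in HY33 at 0 h, 282.4 ± 15.6 at 3 h, 280.7 ± 3.72 at 12 h, 204.7 ± 5.49 at 24 h and 133.7 ± 18.8 at 48 h. In HY9115 the sum was 23.95 ± 3.41 FPKM at 0 h, 230.2 ± 18.2 at 3 h, 217.4 ± 8.67 at 12 h, 182.2 ± 4.21 at 24 h and 111.5 ± 3.9 at 48 h. The 3 genes described here made up 84.3% of the family's level in HY33 at 3 h, against 42.6% in HY33 at 0 h, and 85.8% in HY9115 at 3 h, against 32.9% in HY9115 at 0 h. At 48 h their share was 44.9% in HY33 and 69.4% in HY9115. The 15 raffinose synthase genes summed to 86.57 ± 3.9 FPKM in HY33 at 0 h, 186.7 ± 1.62 at 3 h, 241.2 ± 14 at 12 h, 175.5 ± 1.07 at 24 h and 186.6 ± 6.86 at 48 h. In HY9115 they summed to 108.9 ± 2.57 FPKM at 0 h, 291 ± 13.1 at 3 h, 200.3 ± 9.68 at 12 h, 180.8 ± 5.7 at 24 h and 201 ± 6.57 at 48 h. Ah13g315800 made up at most 7.94% of that sum in HY33 and 7.6% in HY9115, both at 48 h.

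**Figure D2:**
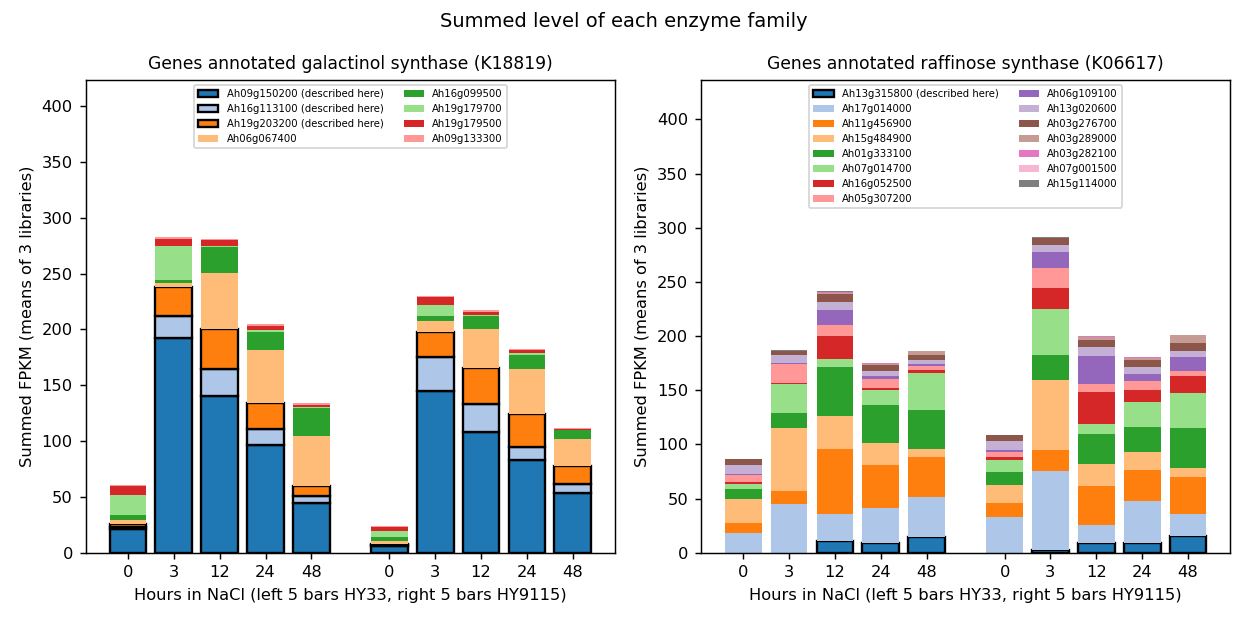
Summed FPKM (y axes) of all 8 genes annotated galactinol synthase and all 15 annotated raffinose synthase, by hours in NaCl (x axes, 0 h in water), stacked by gene from means of 3 libraries, with the genes described here outlined in black. Galactinol synthase is dominated at 3 h by the 3 outlined genes, 84.3% in HY33 and 85.8% in HY9115, while Ah13g315800 is a thin layer among raffinose synthases.

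The other 5 galactinol synthase genes followed other courses, and here the test applies. Ah06g067400 rose at 12 h to 49.75 ± 6.76 FPKM in HY33, against 3.563 ± 0.79 in HY33 at 0 h (SD, n = 3 each, log2 change 3.91 ± 0.17, adjusted p = 8.5e-20), and stayed high at 48 h with 44.8 ± 7.3 FPKM. At 3 h it rose in HY9115, with 10 ± 0.808 FPKM against 2.937 ± 0.621 at 0 h (log2 change 1.78 ± 0.18, adjusted p = 3.3e-10), while HY33 had 3.307 ± 0.692 FPKM at 3 h (adjusted p = 0.66), and the changes differed by -1.90 ± 0.27 (adjusted p = 3.5e-06). Ah16g099500 rose at 12 h to 23.04 ± 0.723 FPKM in HY33, against 4.36 ± 1.03 in HY33 at 0 h (log2 change 2.51 ± 0.16, adjusted p = 2.2e-15), and in HY9115 to 11.76 ± 1.39 FPKM, against 3.72 ± 0.2 in HY9115 at 0 h (1.77 ± 0.17, adjusted p = 5.2e-11).

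Ah19g179700 moved the other way. It fell at 12 h to 1.093 ± 0.306 FPKM in HY33, against 18.15 ± 3.46 in HY33 at 0 h (log2 change -3.93 ± 0.28, adjusted p = 3.9e-14), and to 0.43 ± 0.21 FPKM in HY9115, against 5.407 ± 1.36 in HY9115 at 0 h (-3.57 ± 0.38, adjusted p = 6.7e-10). Ah19g179500, at 24752464 to 24754520 on chromosome 19 where Ah19g179700 starts at 24765424, fell at 48 h in both, by 1.55 ± 0.19 in HY33 (adjusted p = 5.2e-09) and by 1.68 ± 0.24 in HY9115 (adjusted p = 1.4e-07) on the log2 scale. At 3 h it rose in HY9115 by 1.19 ± 0.17 (adjusted p = 6.7e-07). Ah09g133300 stayed at or under 1.753 FPKM in every group mean and was called in no salt comparison. At 48 h all 5 were called higher in HY33 than in HY9115, which 5.97% of all genes were, with the largest log2 difference, 3.02 ± 0.68 (adjusted p = 0.00061), in Ah19g179700 and 1.71 ± 0.15 (adjusted p = 3.2e-11) in Ah16g099500. Of the 5, Ah19g179500 and Ah19g179700 were already called higher in HY33 at 0 h, by 1.25 ± 0.17 (adjusted p = 8.9e-07) and 1.75 ± 0.21 (adjusted p = 6.5e-08). The change from 0 h to 48 h was called as different between the cultivars in Ah16g099500 (1.48 ± 0.24, adjusted p = 1.4e-05) and in none of the other 4 (adjusted p = 0.029 to 0.82). The call for Ah06g067400, 1.00 ± 0.14 (adjusted p = 9e-07), sits at the threshold and was lost with DESeq2's size factors, with total counts (0.88) and without HY33 48 h replicate 2 (0.85) or HY9115 48 h replicate 3 (0.87).

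**Figure D3:**
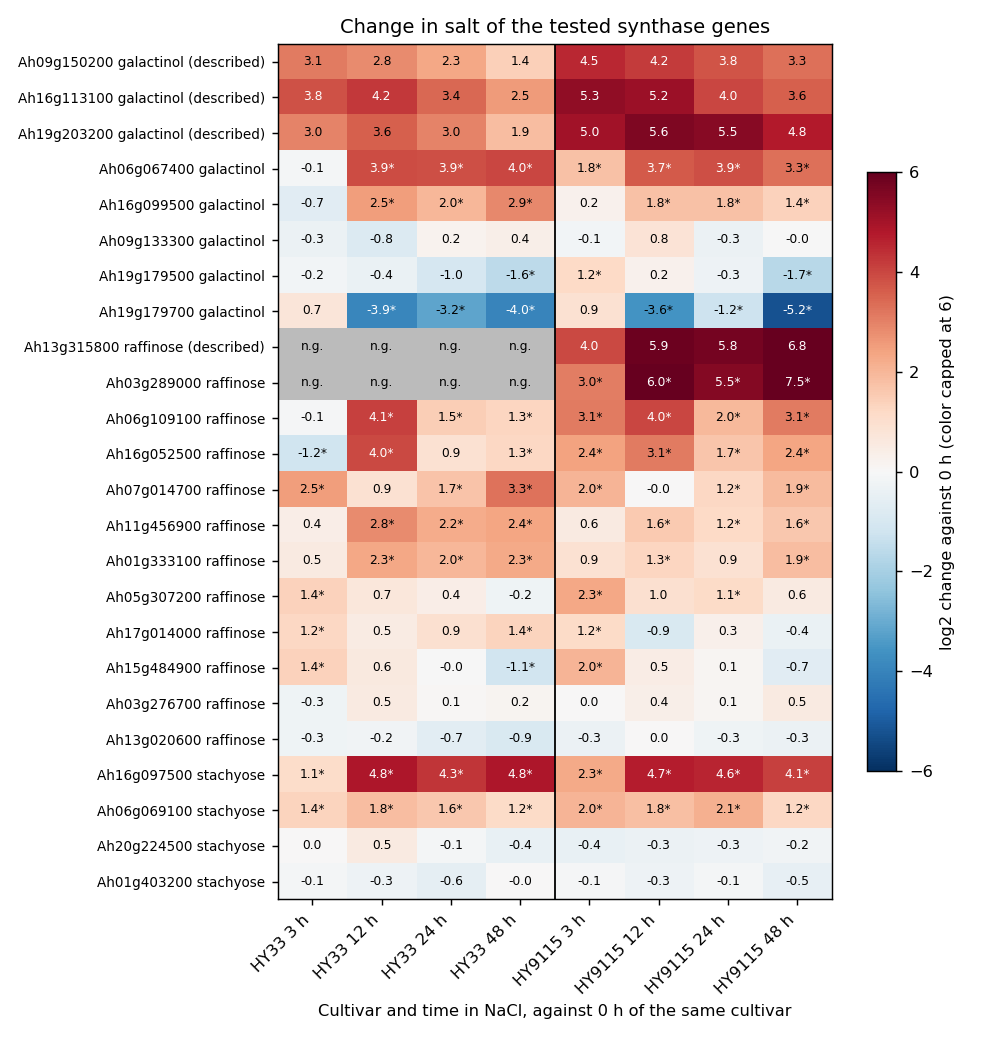
Log2 change from 0 h of the same cultivar (cell value and color, capped at 6) for the 24 tested galactinol, raffinose and stachyose synthase genes (rows) at each time in NaCl in HY33 and HY9115 (columns). A star marks a called change (adjusted p under 0.05 in edgeR's test and log2 change of at least 1 in size), for genes other than the 4 described. Cells without a star can still have a small adjusted p. The mark n.g. stands for values not given because a group held 3 counts or fewer. Genes of 1 enzyme run in both directions, from 3.9 for Ah06g067400 to -3.9 for Ah19g179700 in HY33 at 12 h.

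Among the 11 other tested raffinose synthase genes, early, late and cultivar-dependent courses stood side by side. Ah15g484900, Ah05g307200, Ah17g014000 and Ah07g014700 rose at 3 h in both cultivars. Of these, Ah15g484900 reached 58.61 ± 1.11 FPKM in HY33 at 3 h, against 21.94 ± 1.17 at 0 h (log2 change 1.39 ± 0.09, adjusted p = 2.3e-15), and fell by 1.14 ± 0.09 at 48 h (adjusted p = 4.7e-13). Ah07g014700 reached 26.77 ± 0.835 FPKM in HY33 at 3 h, against 4.623 ± 0.393 at 0 h (2.50 ± 0.11, adjusted p = 7.1e-19), and again 34.16 ± 0.393 FPKM at 48 h. Ah11g456900 rose from 12 h on in both cultivars, to 60.6 ± 5.57 FPKM in HY33 at 12 h, against 9.12 ± 0.318 at 0 h (2.83 ± 0.10, adjusted p = 2.5e-22), and Ah01g333100 rose at 12, 24 and 48 h in HY33 and at 12 and 48 h in HY9115. Ah03g276700 and Ah13g020600 were called in no salt comparison. Ah13g020600 was still lower in FPKM at 48 h, with 3.603 ± 0.208 in HY33, against 8.723 ± 1.01 at 0 h. In HY9115 it had 5.58 ± 0.754 FPKM at 48 h, against 8.347 ± 0.544 at 0 h. These FPKM values are scaled on library totals, whereas the calls use TMM.

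A lower level in HY33 than in HY9115 at 3 h, as in Ah13g315800, was called in 3 of these genes. Ah16g052500 had 0.6333 ± 0.267 FPKM in HY33 and 18.79 ± 1.73 FPKM in HY9115 at 3 h (log2 difference -4.94 ± 0.36, adjusted p = 5.5e-13), and the changes from 0 h differed by -3.62 ± 0.56 (adjusted p = 1.8e-05). Ah06g109100 had 0.85 ± 0.106 FPKM in HY33 and 15.24 ± 0.69 FPKM in HY9115 at 3 h (-4.20 ± 0.37, adjusted p = 5.7e-11), and the changes differed by -3.18 ± 0.62 (adjusted p = 0.00045). Both carry a GO term for raffinose alpha-galactosidase activity, which splits raffinose, beside the raffinose synthase KO. At 12 h Ah16g052500 had 21.04 ± 8.82 FPKM in HY33 and 29.25 ± 7.91 FPKM in HY9115 (adjusted p = 0.18). Ah03g289000, a weakly expressed gene, had 0.02667 ± 0.0379 FPKM in HY33 at 3 h (5 counts, with 3 in HY33 at 0 h), against 0.3867 ± 0.0289 FPKM in HY9115 at 3 h (log2 difference -3.73 ± 0.51, adjusted p = 8e-07). In HY33 at 48 h it had 660 counts against 3 at 0 h, a ratio of 219 with a 95% counting interval of 74.7 to 1070.

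**Figure D4:**
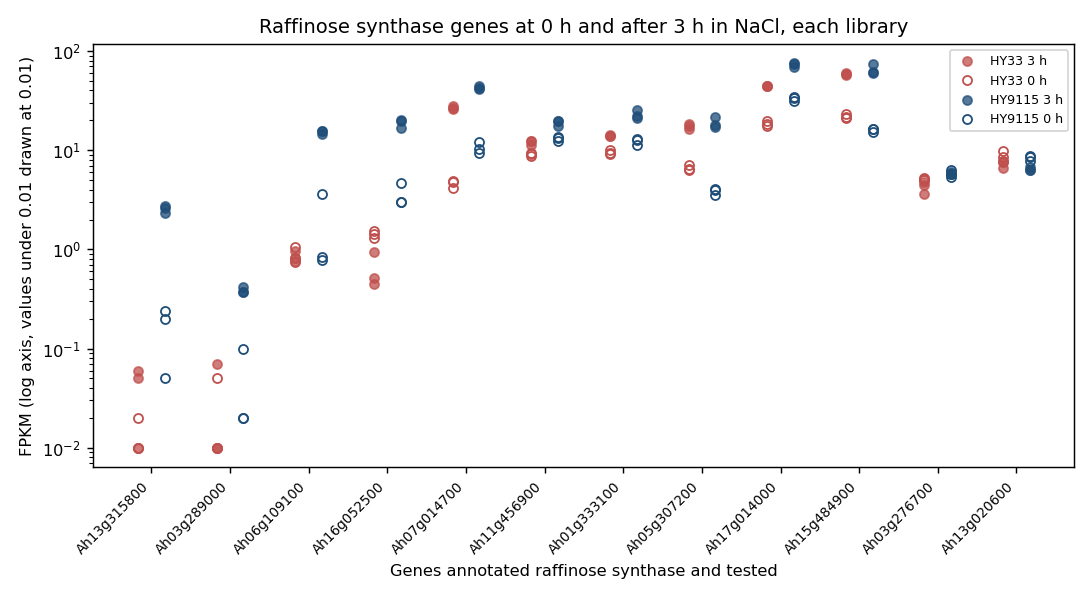
FPKM (y axis, log scale, values under 0.01 drawn at 0.01) of the 12 tested genes annotated raffinose synthase (x axis) in each library at 3 h (filled) and 0 h (open), HY33 in red and HY9115 in blue. In Ah16g052500 the filled red points lie below the open red ones, and in Ah06g109100 among them. In Ah13g315800 and Ah03g289000 all red points lie near the floor. The highest are 0.06 and 0.07 FPKM at 3 h, against 0.02 and 0.05 FPKM at 0 h. In each of these genes the filled blue points lie above the others, as with 0.6333 FPKM in HY33 and 18.79 FPKM in HY9115 for Ah16g052500.

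Of 4 tested stachyose synthase genes, Ah16g097500 and Ah06g069100 rose in all 8 salt comparisons, which 2.19% of all genes did. Ah16g097500 had 5.483 ± 0.935 FPKM in HY33 at 12 h, against 0.2 ± 0.0557 in HY33 at 0 h (log2 change 4.84 ± 0.26, adjusted p = 3.2e-17), and 4.903 ± 0.707 FPKM in HY9115 at 12 h, against 0.1967 ± 0.0961 in HY9115 at 0 h (4.72 ± 0.27, adjusted p = 1e-16). Ah06g069100 stayed low, at most 1.513 ± 0.0851 FPKM in HY33 at 12 h, and its calls at 48 h were weak. At 48 h its log2 change was 1.17 ± 0.35 in HY33 (adjusted p = 0.0033) and 1.24 ± 0.38 in HY9115 (adjusted p = 0.0043). Both calls were lost with total counts (0.80 and 0.98) and with TPM scaling (0.68 and 0.91). The HY33 call was also lost without HY33 0 h replicate 1 (0.93), and the HY9115 call without HY9115 0 h replicate 3 (0.98). At 3 h Ah16g097500 was lower in HY33 than in HY9115 (log2 difference -1.13 ± 0.28, adjusted p = 0.0024). Ah20g224500 and Ah01g403200 were called in no salt comparison.

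The pathway list, written as 17 KO numbers, held 141 genes, and 91 tested genes of it are not among the 4. The list was written with earlier results of these libraries known. Of the 91, 11 rose and 8 fell in HY33 at 3 h, 20.9% of them against 14.1% of all genes tested. At 12 h in HY33 22 rose and 13 fell (38.5% against 23.9%), at 24 h 16 rose and 12 fell (30.8% against 23.7%), and at 48 h 24 rose and 17 fell (45.1% against 34.4%). In HY9115 16 rose and 9 fell at 3 h (27.5% against 14.7%), 19 and 15 at 12 h (37.4% against 23.8%), 17 and 12 at 24 h (31.9% against 19.7%), and 20 and 23 at 48 h (47.3% against 35.7%). The median log2 change of the 91 stayed between -0.20 and 0.06 in all 8, beside -0.03 to 0.03 for all genes. Of the 20 other synthesis genes in HY33, 6 rose and 1 fell at 3 h, 9 and 1 at 12 h, 9 and 1 at 24 h, and 11 and 3 at 48 h, with median log2 changes of 0.20, 0.80, 0.93 and 1.21. With total counts or TPM scaling, 7 rose and 4 fell in HY33 at 48 h. In HY9115 11 rose and 0 fell at 3 h, 9 and 1 at 12 h, 10 and 1 at 24 h, and 10 and 2 at 48 h, with medians of 1.17, 0.89, 1.04 and 0.90. Of all genes, 6.61% (HY33 at 3 h) to 14.5% (HY9115 at 48 h) rose in a salt comparison, and 6.43% (HY9115 at 3 h) to 21.3% (HY9115 at 48 h) fell.

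Between the cultivars, 5 of the 91 were higher and 4 lower in HY33 at 0 h, 7 and 8 at 3 h, 4 and 0 at 12 h, 1 and 2 at 24 h, and 11 and 6 at 48 h. Those called in either direction were 9.89% of the 91 at 0 h, against 5.71% of all genes. They were 16.5% at 3 h (5.85% of all genes) and 18.7% at 48 h (9.02%). At 12 h they were 4.4% (3.76%) and at 24 h 3.3% (5.16%), near or under the share of all genes. At 48 h 5.97% of all genes were called higher and 3.06% lower in HY33. The change from 0 h differed between the cultivars in 2 genes with the higher and 5 with the lower change in HY33 at 3 h (over all genes 1.5% and 2.95%), 8 and 2 at 12 h (2.29% and 2.22%), 3 and 4 at 24 h (1.86% and 1.88%), and 9 and 7 at 48 h (5.04% and 2.95%).

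Supply genes make the sugars and inositol that the synthases use, and 36 other ones were tested. In HY33 0 rose and 4 fell at 3 h, 6 and 6 at 12 h, 3 and 4 at 24 h, and 3 and 8 at 48 h. In HY9115 1 rose and 5 fell at 3 h, 5 and 8 at 12 h, 2 and 7 at 24 h, and 3 and 14 at 48 h. Of all genes, 6.61%, 11%, 10.4% and 14.3% rose at those times in HY33, and 7.45%, 12.9%, 13.4% and 20.1% fell. In HY9115 8.27%, 11.4%, 9.2% and 14.5% of all genes rose, and 6.43%, 12.4%, 10.5% and 21.3% fell. Several of the counts lie near these shares, and no trait of supply genes is read from them. With total counts 11 fell in HY33 at 48 h, and with TPM scaling 13. Inositol-3-phosphate synthase, the first enzyme of inositol synthesis, had 4 tested genes, and all 4 rose at 12 h in both cultivars. Ah20g158000 had 842.4 ± 40.8 FPKM in HY33 at 12 h, against 127.1 ± 9.01 at 0 h (log2 change 2.83 ± 0.08, adjusted p = 6.8e-25), and 908.8 ± 41.2 FPKM in HY9115 at 12 h, against 124.5 ± 5.1 at 0 h (2.99 ± 0.08, adjusted p = 3.5e-25). At 3 h it fell in HY33, to 46.26 ± 2.67 FPKM (-1.49 ± 0.08, adjusted p = 1.8e-17). In HY9115 at 3 h it was also lower, at 62.88 ± 3.53 FPKM (-0.97 ± 0.08, adjusted p = 7.7e-13), just under the size for a call. Ah13g475600 likewise rose at 12 h, by 2.72 ± 0.09 in HY33 (adjusted p = 2e-22) and 1.80 ± 0.09 in HY9115 (adjusted p = 6.2e-18). In HY33 it fell at 48 h by 1.00 ± 0.09 (adjusted p = 1.8e-11), at the threshold for a call. In HY9115 it fell at 48 h by 1.39 ± 0.09 (adjusted p = 4.2e-15) and at 3 h by 1.02 ± 0.09 (adjusted p = 2.2e-11). The 3 h call lay at the threshold and was lost, among other settings, without HY9115 0 h replicate 2 or HY9115 3 h replicate 3.

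UDP-glucose 4-epimerase, which makes UDP-galactose, was split. Ah05g208100 rose to 120.0 ± 10.67 FPKM in HY33 at 12 h, against 18.57 ± 1.1 at 0 h (log2 change 2.79 ± 0.09, adjusted p = 2.2e-23), and to 100.2 ± 6.58 FPKM in HY9115 at 48 h, against 12.77 ± 0.679 at 0 h (3.23 ± 0.09, adjusted p = 4.6e-25). Ah03g385500 fell at 12 h by 1.31 ± 0.10 in HY33 (adjusted p = 5.4e-13) and by 1.46 ± 0.10 in HY9115 (adjusted p = 3.1e-14). The abundant sucrose synthase gene Ah14g002200 fell to 55.58 ± 1.85 FPKM in HY33 at 24 h, against 293.3 ± 14.1 at 0 h (-2.28 ± 0.08, adjusted p = 1.6e-22), and to 58.28 ± 5.08 FPKM in HY9115 at 24 h, against 291.3 ± 31.4 at 0 h (-2.26 ± 0.08, adjusted p = 3.4e-22). Ah01g282500, another sucrose synthase gene, fell at 24 h by 1.27 ± 0.07 in HY33 (adjusted p = 1.3e-16) and by 1.41 ± 0.07 in HY9115 (adjusted p = 1.2e-17). The sucrose-phosphate synthase genes Ah01g331700 and Ah11g458400 fell in HY9115 at 48 h, by 1.34 ± 0.10 (adjusted p = 2.9e-14) and 1.33 ± 0.08 (adjusted p = 1.1e-16). Of the same enzyme, Ah14g036300 fell in 7 of the 8 salt comparisons and Ah04g022200 in 6. Ah14g036300 had 0.39 ± 0.15 FPKM in HY33 at 48 h, against 5.417 ± 0.527 at 0 h. In HY9115 it had 0.5767 ± 0.122 FPKM at 48 h, against 14.62 ± 2.19 at 0 h. The inositol phosphatase genes Ah11g384500 and Ah01g386300, both under 2.4 FPKM, fell in HY33 at 48 h, by 1.12 ± 0.27 (adjusted p = 0.00053) and 1.33 ± 0.38 (adjusted p = 0.0023).

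Among 35 other tested genes for breakdown and reuse, 5 rose and 3 fell in HY33 at 3 h, 7 and 6 at 12 h, 4 and 7 at 24 h, and 10 and 6 at 48 h. With TPM scaling 8 rose and 12 fell in HY33 at 48 h. In HY9115 4 rose and 4 fell at 3 h, 5 and 6 at 12 h, 5 and 4 at 24 h, and 7 and 7 at 48 h. The shares of all genes at these times are given above with the supply genes, and no trait of breakdown genes is read from the counts. Alpha-galactosidase takes the galactose off raffinose again, and 0 of its 8 tested genes were called higher in any salt comparison. Ah10g238900 was higher at 48 h but under the size for a call. Its log2 change was 0.80 ± 0.07 in HY33 (adjusted p = 1.5e-11) and 0.83 ± 0.07 in HY9115 (adjusted p = 5.1e-12). Ah04g308700 was lower at 48 h, also under that size, by 0.56 ± 0.13 in HY33 and 0.97 ± 0.13 in HY9115. Over all genes tested, 6.61% (HY33 at 3 h) to 14.5% (HY9115 at 48 h) were called higher in a single salt comparison. With 8 genes, 0 called higher is not far from such shares, and nothing is read from it. The share called lower in a single salt comparison was 6.43% (HY9115 at 3 h) to 21.3% (HY9115 at 48 h). The share called lower in all 8 is not given here. Ah05g283100 fell in all 8, to 3.16 ± 0.417 FPKM in HY33 at 48 h, against 21.6 ± 1.47 at 0 h (log2 change -2.40 ± 0.12, adjusted p = 1.2e-18), and to 1.783 ± 0.281 FPKM in HY9115 at 48 h, against 15.68 ± 1.68 at 0 h (-2.88 ± 0.13, adjusted p = 1e-19). Its call in HY33 at 3 h sat at the threshold and was lost with total counts (-0.98) and without any 1 of several libraries. Ah15g506600 fell in HY9115 at 3 h by 1.17 ± 0.09 (adjusted p = 1.9e-13).

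Beta-fructofuranosidase, the invertase that splits sucrose, also acts on raffinose. Of its 17 tested genes, Ah08g142600 and Ah18g025800 rose in all 8 salt comparisons. The share of all genes that did so is given above with stachyose synthase. Other genes of this enzyme ran in both directions. Ah05g117200 and Ah15g122000 fell in 6 of the 8, Ah03g117700 and Ah13g152400 fell in 3, and Ah06g417800 rose in 4. Ah08g142600 had 64.07 ± 9.08 FPKM in HY33 at 3 h, against 2.413 ± 0.569 at 0 h (log2 change 4.70 ± 0.14, adjusted p = 2.2e-23), and 105.9 ± 7.21 FPKM in HY9115 at 48 h, against 2.167 ± 0.326 at 0 h (5.86 ± 0.15, adjusted p = 2e-26). Ah18g025800 had 53.8 ± 2.58 FPKM in HY33 at 48 h, against 1.81 ± 0.279 at 0 h (5.26 ± 0.15, adjusted p = 7.1e-25). Inositol oxygenase, which draws inositol off into sugar acids, had 1 gene that rose in all 8, Ah15g471500, with 21.29 ± 5.08 FPKM in HY33 at 12 h, against 3.277 ± 0.343 at 0 h (2.80 ± 0.26, adjusted p = 4.6e-11). Ah13g370200, of the same enzyme, fell in HY33 at 12 h by 1.95 ± 0.18 (adjusted p = 1.5e-11). The UDP-sugar pyrophosphorylase gene Ah17g434200 fell in HY9115 at 48 h by 1.08 ± 0.09 (adjusted p = 7e-13).

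Marker lists moved alongside these changes. The 23 green shoot genes held 2.38 to 2.43% of counts in HY33 at 0 h and 0.329 to 0.354% at 48 h, and 1.84 to 2.07% in HY9115 at 0 h and 0.289 to 0.319% at 48 h. The 70 cotyledon and seed genes held 0.145 to 0.156% of counts in HY33 at 3 h, 0.269 to 0.331% in HY33 at 12 h, 0.363 to 0.391% in HY9115 at 3 h and 0.264 to 0.283% in HY9115 at 12 h. At 0 h they held 0.128 to 0.15% in HY33 and 0.421 to 0.547% in HY9115. Of the 46 that were tested, 2 rose and 3 fell in HY33 at 3 h, 28 rose and 0 fell in HY33 at 12 h, 17 rose and 0 fell in HY9115 at 3 h and 21 rose and 8 fell in HY9115 at 12 h. Of all genes, 6.61% rose and 7.45% fell in HY33 at 3 h, and 11% and 12.9% in HY33 at 12 h. In HY9115 8.27% of all genes rose and 6.43% fell at 3 h, and 11.4% and 12.4% at 12 h. The 2 isocitrate lyase genes among the 70 held 0.242 to 0.266% of counts in HY9115 at 3 h and 0.103 to 0.124% in HY9115 at 12 h, against 0.299 to 0.416% in HY9115 at 0 h. In HY33 these 2 genes ran the other way, with 0.056 to 0.0675% at 3 h and 0.113 to 0.176% at 12 h, against 0.0346 to 0.0551% at 0 h. The other 68 held 0.121 to 0.128% in HY9115 at 3 h and 0.157 to 0.166% in HY9115 at 12 h, against 0.12 to 0.131% in HY9115 at 0 h. In HY33 the other 68 held 0.0885 to 0.0898% at 3 h and 0.154 to 0.157% at 12 h, against 0.0937 to 0.096% at 0 h. In each group 9 to 16 of the 70 had no count. Storage protein genes with no count in any of the 30 libraries numbered 3 of 36, oil body genes 3 of 24, and isocitrate lyase and malate synthase genes, which serve the use of seed oil, 0 of 2 and 0 of 8. The 60 root genes held 0.0237 to 0.0264% of counts in HY33 at 0 h and 0.00862 to 0.00919% at 48 h, and 0.0274 to 0.032% in HY9115 at 0 h and 0.0093 to 0.00973% at 48 h. The part of these markers in the values of the 4 genes was not tested.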

How the data were processed

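The authors deposited 1 table with, for each of 30 libraries, whole-number read counts per gene, which were not normalised as far as the values show. The table also holds FPKM values, which the authors deposited alongside and which equal the deposited counts divided by exonic length and library total in 100% of values (tolerance 0.005). The submitters' processing notes name HTSeq 0.6.1, HISAT2 2.2.1, cutadapt 1.9.1 and DESeq2. No source used here gives the genome build, the gene annotation or the strand setting of the counting. Libraries were made from oligo-dT captured RNA with random primers and read from both ends, per the labels' protocols. Groups came from the sample titles.

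Counts were fitted with edgeR 4.0.16 in R 4.3.3: TMM factors (0.804 to 1.11) on 42311 genes (99.57% of counts), 1 fit with a coefficient per group, estimateDisp, glmQLFit and glmQLFTest, with Benjamini-Hochberg adjustment over all tested genes. Likeness used log2 CPM with a prior count of 2. DESeq2 1.42.0 was an alternative. Every pair of replicates differed by more than sampling noise (chi-square over degrees of freedom 2.08 to 8.56). Scripts were tested on simulated data. The 4 genes, the lists and the tests were chosen with earlier results of these data known. Named besides the 4 are every tested galactinol, raffinose or stachyose synthase gene, up to 2 called genes per other KO with the highest mean FPKM, and the 5 genes most like each of the 4. A few further genes of those other KOs are given to show the spread within a family. Count intervals cover counting error only. No sequences were printed.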

Additional observations from a re-analysis of the deposited data

Results flagged for a closer look

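For 14 of the 37 genes named by enzyme outside the 4, the change from 0 h differed between the cultivars at 1 or more times. The call is from edgeR's test of the difference itself (HY33 minus HY9115, log2, at least 1 in size). Over all genes, 4.45% were called so at 3 h, 4.52% at 12 h, 3.74% at 24 h and 8% at 48 h. Those of the 37 outside the synthases were picked among genes called in salt, so the count is not read against these shares. At 3 h the value was -1.90 for Ah06g067400 (adjusted p = 3.5e-06), -3.18 for Ah06g109100 (adjusted p = 0.00045), -3.62 for Ah16g052500 (adjusted p = 1.8e-05), -1.36 for Ah19g179500 (adjusted p = 9.8e-05) and -1.08 for Ah13g370200 (adjusted p = 0.00064). All 5 had the lower change in HY33, and Ah16g052500 had -1.21 in HY33 (adjusted p = 0.043, and 0.18 without HY33 3 h replicate 3) and 2.40 in HY9115.

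At 12 h the difference was 1.04 for Ah01g333100 (adjusted p = 2.6e-06), 1.25 for Ah11g456900 (adjusted p = 1.7e-08), 1.40 for Ah17g014000 (adjusted p = 4.2e-11) and -1.64 for Ah09g133300 (adjusted p = 0.0016). The first 3, all raffinose synthase genes, had the higher change in HY33. At 24 h it was 1.07 for Ah01g333100 (adjusted p = 2e-06), 1.06 for Ah11g456900 (adjusted p = 6.1e-07), -1.94 for Ah19g179700 (adjusted p = 0.00052) and -1.26 for Ah13g370200 (adjusted p = 0.00029).

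At 48 h it was -1.84 for Ah06g109100 (adjusted p = 0.02), 1.37 for Ah07g014700 (adjusted p = 2.8e-08), 1.48 for Ah16g099500 (adjusted p = 1.4e-05), 1.78 for Ah17g014000 (adjusted p = 7.5e-14), 1.24 for the sucrose synthase gene Ah14g002200 (adjusted p = 8.1e-11), -1.80 for the inositol oxygenase gene Ah15g471500 (adjusted p = 0.0014) and -2.25 for the inositol oxygenase gene Ah13g370200 (adjusted p = 5.8e-09). Ah17g014000 had 1.35 in HY33 and -0.42 in HY9115.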

How the results depend on the processing

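The values of the 4 genes kept their direction under every alternative run, except that Ah13g315800 between HY33 and HY9115, 0.08 at both 24 h and 48 h, was -0.09 at 24 h with TPM scaling and, at 48 h, -0.04 with total counts and -0.15 with TPM scaling. With total counts Ah09g150200 was 2.71 at 12 h, 2.18 at 24 h and 1.06 at 48 h in HY33 and 3.05 at 48 h in HY9115, and Ah16g113100 was 2.17 at 48 h in HY33. With TPM scaling Ah09g150200 was 2.75, 2.15 and 0.94 at those times in HY33 and 2.98 at 48 h in HY9115, Ah16g113100 was 2.06 and Ah19g203200 1.36 at 48 h in HY33. Between cultivars TPM scaling gave 0.12 at 24 h and -0.37 at 48 h for Ah09g150200 and -0.40 at 24 h for Ah19g203200, and 4 other pathway genes, against 7, were called for the difference in change at 24 h. With genes of at least 5 FPKM only, Ah09g150200 at 48 h in HY33 was 1.34. TPM scaling moved the median gene by -0.49 in HY33 and -0.33 in HY9115 at 48 h. Leaving out 1 library at a time, Ah09g150200 in HY33 at 12 h ranged from 2.80 to 2.87. The ratio of Ah13g315800 to 0 h in HY33 ranged from 333 to 1560 at 12 h, 262 to 1170 at 24 h and 443 to 1970 at 48 h, the lowest being without HY33 0 h replicate 1, which held the only count, against 3 counts over the group. Between cultivars its ratio ranged from 0.0351 to 0.204 at 0 h, the highest also without that library, and from 0.00966 to 0.0216 at 3 h. Of 7918 values of single named calls under alternatives, 155, in 27 of 210 calls, missed the threshold and 0 changed direction.

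There was little sign that replicate numbers pair the libraries: of 39 same-numbered pairs 1 had a correlation of deviations over 0.1 (range -0.12 to 0.106), and 18 correlated best with their own number. Between the cultivars at 12 h and 24 h every same-numbered pair correlated best with its own number, at 0.00317 to 0.106. With the number as a replicate block, Ah09g150200 in HY33 at 3 h was 3.14, 41 other pathway genes were called in HY33 at 48 h as without it, and 210 of 210 single calls were kept.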

Other observations

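Each of the 4 genes was set beside the 20 tested genes on either side of it on its chromosome. The neighbours' median log2 change was at most 0.27 in size in any salt comparison and at most 0.23 in any comparison of cultivars. In 486 genes, in stretches where the running median over 21 genes set HY33 apart from HY9115 at 0 h by more than 0.6, there were 0 of the 4 genes and 0 other genes of the pathway list.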
